A study of Homo sapiens with 15 samples.

Results

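Lysosome genes were followed in K562 cells, an established human chronic myeloid leukaemia line that carries the BCR-ABL fusion, after treatment with martinostat, which inhibits histone deacetylases (HDACs). The set held 47 named genes of 60649 in the count table. They were taken by name from a list drawn up with earlier results of these data known, by a rule that itself uses no measured value, and comprised 9 lysosomal membrane proteins, 10 cathepsins, 9 glycosidases, 8 other proteins of the lumen, 8 subunits of the vacuolar proton pump (V-ATPase) and 3 transcription factors of the MiT/TFE family. All 47 were found and all 47 passed the filter on low counts, which left 23711 genes to be tested. There were 5 groups of 3 libraries, numbered as biological replicates: untreated cells and cells exposed to martinostat for 24 h at 0.15, 0.25, 0.5 or 1 µM. All groups were cultured K562 cells of 1 line, so a result concerns this line, and the labels do not say whether the untreated cells received the solvent. The measure was poly(A) RNA in bulk cultures, in which fewer cells of a type and less RNA per cell cannot be told apart.

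Lysosomes are acidic, membrane-bound organelles in which proteins, lipids, glycans and nucleic acids are broken down. The V-ATPase pumps protons into the lumen, soluble hydrolases such as cathepsins and glycosidases work there at low pH, and membrane proteins protect the boundary and export the products. Transcription of many of these genes is driven by the MiT/TFE factors, which bind a form of the E-box, CACGTG, known as the CLEAR element, and are themselves held in the cytosol while nutrients are plentiful. In myeloid cells the content of the lysosome differs between lineages, and some cathepsins are known mainly from macrophages, osteoclasts and antigen-presenting cells.

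Library totals ran from 23755510 to 32805574 counts. Levels are given as CPM, read counts divided by library size in units of 1e6 after TMM scaling, which sets libraries level by a trimmed mean of their log ratios, and differences as log2 fold changes with their standard error (SE). A gene was called at an adjusted p under 0.05 in edgeR's quasi-likelihood test. The replicate 3 libraries at 0.25 and 0.5 µM stood apart on the third principal component (70.1 and 75.4, all other libraries 16 or lower), which held 4.47% of the variance. Among the 47 genes, the third library lay under 70% of the mean of replicates 1 and 2 for 9 genes at 0.25 µM and 12 genes at 0.5 µM, against 1 or 2 genes in each other group. The scaling also matters: with TMM the median log2 fold change of all genes tested was 0.28 at 0.15 µM and 0.32 at 1 µM, and with plain library totals it was 0.64 and 0.67. A change near these values is therefore relative to the scaling chosen. All comparisons with untreated cells share the same 3 untreated libraries.

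Of the 47 genes, 33 had a promoter in the RefSeq table (GRCh38.p14, 250 bases before to 50 bases after the gene start). The stretches below are shown because they hold the letters CACGTG, given in capitals, in genes called in opposite directions at 1 µM. Each is printed 5′ to 3′ on the strand of its gene, and distances are counted from the gene start. The first 4 belong to genes that were higher at 1 µM and the last 2 to genes that were lower. The lower calls of CLCN7 and CD63 depended on the scaling, as given below. The NEU1 stretch lies at chr6:31862922-31862967 on the minus strand, MCOLN1 at chr19:7522563-7522623 on the plus strand, GAA at chr17:80101485-80101575 on the plus strand, ATP6V0D1 at chr16:67481191-67481236 on the minus strand, CLCN7 at chr16:1475030-1475095 on the minus strand and CD63 at chr12:55729164-55729209 on the minus strand.
NEU1: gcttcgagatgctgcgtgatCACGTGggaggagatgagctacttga
MCOLN1: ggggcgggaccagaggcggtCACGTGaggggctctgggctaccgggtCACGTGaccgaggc
GAA: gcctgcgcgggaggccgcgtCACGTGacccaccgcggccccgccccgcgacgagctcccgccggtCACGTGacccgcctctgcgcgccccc
ATP6V0D1: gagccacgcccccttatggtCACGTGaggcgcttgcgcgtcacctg
CLCN7: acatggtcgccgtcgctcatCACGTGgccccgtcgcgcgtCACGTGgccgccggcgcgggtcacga
CD63: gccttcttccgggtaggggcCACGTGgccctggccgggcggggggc

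CACGTG, which reads the same on both strands, was present in 11 of the 33 promoters (33.3%), against 2030 of 27305 promoters in the table (7.43%). The longer TCACGTG, searched on both strands and always overlapping CACGTG, was present in 10 (30.3%, all promoters 3.82%). The palindrome with GT before and AC after CACGTG, which contains both shorter forms, was present in 2, those of MCOLN1 and GAA (6.06%, all promoters 0.381%). LAMP1 held 6 matches, the most of any member. By the call at 1 µM, CACGTG was present in 5 of 15 promoters of genes called higher, 3 of 12 of genes called lower and 3 of 6 of genes not called. The median GC content of these promoters was 67.7%, 71.5% and 72.2%, against 58.3% over the whole table. The 3 lower genes with a match were LAMP1, CD63 and CLCN7. All 3 lost that call with TMM computed on genes of 10 CPM or more (log2 fold changes -0.26, -0.49 and -0.03). The split by call therefore depends on the scaling. A match says only that the letters are in the window.

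**Figure D1:**
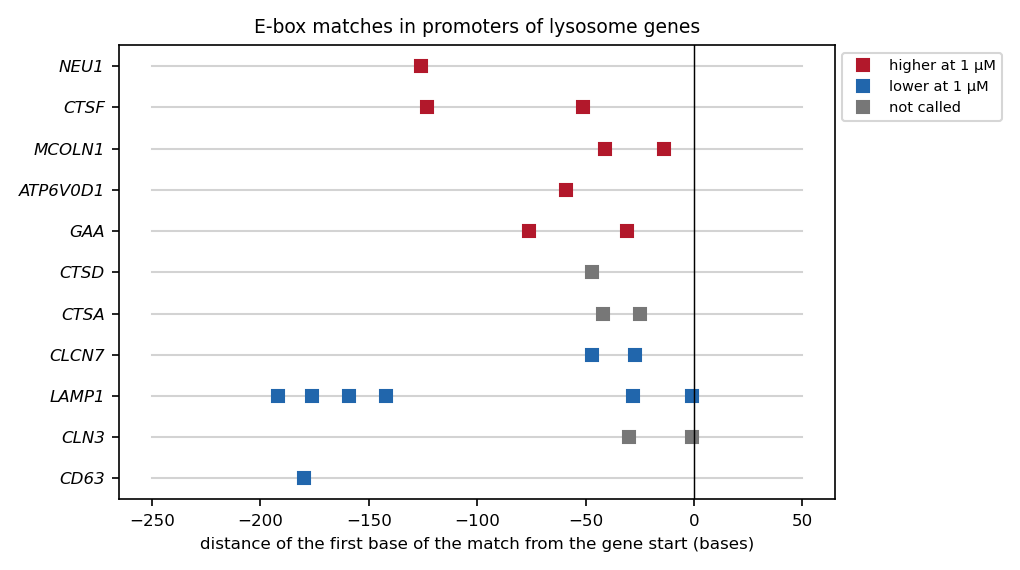
Position of each CACGTG match in the promoters of the 11 members that hold one. The x axis gives the distance of the first base of the match from the gene start in bases. Grey lines mark the window searched, and colours give the call at 1 µM. The lower calls shown were lost under another scaling. Genes called higher, lower and not called all hold matches within 60 bases upstream of the start, and CD63 and NEU1 hold theirs only further upstream.

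The lysosome genes moved in both directions at every dose. At 0.15 µM 17 of the 47 were called higher and 10 lower, where 31.9% of all genes tested were higher and 19.4% lower. At 0.25 µM 18 were higher and 13 lower (all genes 37.4% and 24.8%), at 0.5 µM 21 and 16 (39.4% and 27.6%), and at 1 µM 21 and 15 (38.8% and 27.5%). In either direction 57.4%, 66%, 78.7% and 76.6% of the members were called at the 4 doses, against 51.2%, 62.3%, 66.9% and 66.2% of all genes. Their median log2 fold change was 0.04, -0.04, 0.09 and 0.11, below the medians of all genes, which were 0.28, 0.32, 0.34 and 0.32. Of the 47 members, 18, 20, 21 and 21 lay above these medians. Counts for single roles and lists, given below, stand against the same shares of all genes.

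Abundant genes as a whole leaned the other way. Of the 10128 genes that averaged 10 CPM or more, 21.1%, 22%, 26.6% and 26.5% were higher at the 4 doses, 40.2%, 48.7%, 48.7% and 48.4% were lower, and 61.3%, 70.7%, 75.3% and 74.8% were called in either direction. Among the 41 members at that level, 14, 15, 18 and 18 were higher and 9, 11, 13 and 13 lower. At 1 µM the median log2 fold change was -0.39 over the abundant genes and 0.11 over these members. Scaling moved the split of all 47 members, which was 17 higher and 10 lower for 0.15 µM and 21 and 15 for 1 µM. With library totals the counts over the 47 were 24 higher and 5 lower for 0.15 µM, with 25 and 11 for 1 µM. Of all genes 40.4% were then higher and 8.93% lower for 0.15 µM, with 45.6% and 20.1% for 1 µM. With TMM computed on genes of 10 CPM or more the counts were 21 and 7, and 26 and 8. The shares of all genes were then 38.3% and 12.2%, and 46.8% and 20%. Under each of these scalings 18 members lay above the median of all genes for 0.15 µM and 21 for 1 µM. Without replicate 3 at 0.25 and 0.5 µM, an alternative added after seeing the data, the numbers of the 47 called higher were 18, 19, 22 and 22 and the numbers lower 13, 14, 16 and 15 for the 4 doses in rising order.

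**Figure D2:**
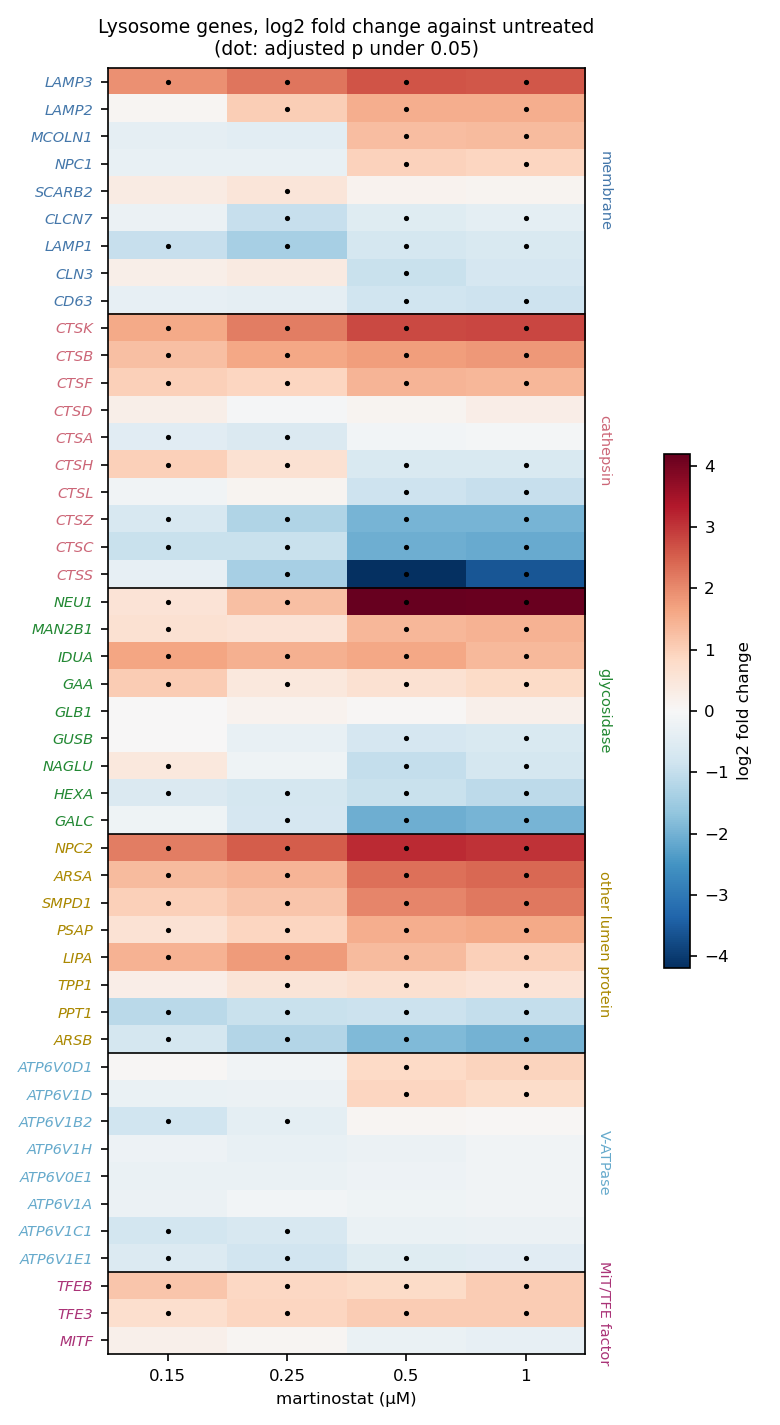
Log2 fold change of the 47 lysosome genes against untreated cells (colour, 3 libraries a group) at the 4 doses of martinostat on the x axis, grouped by role and ordered within each role by the change at 1 µM. A dot marks an adjusted p under 0.05. Each role holds red and blue genes, and the columns for 0.5 and 1 µM look alike. The darkest cells are NEU1, at 4.16 and 4.13, and CTSS, at -4.19 and -3.59.

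Per kilobase of exon, the most abundant lysosome transcript was PSAP, the precursor of the saposins that activate sphingolipid hydrolases. It ranked first in all 5 groups, with 195 CPM per exon kb in untreated cells and 582 at 1 µM. In untreated cells CD63 (130 CPM per exon kb) and PPT1 (75.6) followed, and at 1 µM these had fallen to rank 5 (70.8) and rank 9 (37.6). NEU1 moved from rank 20 (12.1) to rank 2 (212), CTSC from rank 22 (10.4) to rank 37 (2.39), and SMPD1 from rank 27 (8.28) to rank 6 (38.6). The length was the union of all annotated exons (24.8 kb for CTSC, 4.82 kb for NEU1), so ranks between genes depend on it. CTSK, CLN3 and LIPA were the lowest in untreated cells, under 0.2 CPM per exon kb. For CLN3, 25.3% of exon bases lie under another gene of the same strand, so that its level rests on the rest of its exons. Another gene of the same strand also covers 27.3% of the exon bases of CTSD and 21.2% of those of MAN2B1, and a gene of the opposite strand covers 31.7% for CTSZ, 23.4% for CTSD and 21.5% for CTSA.

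**Figure D3:**
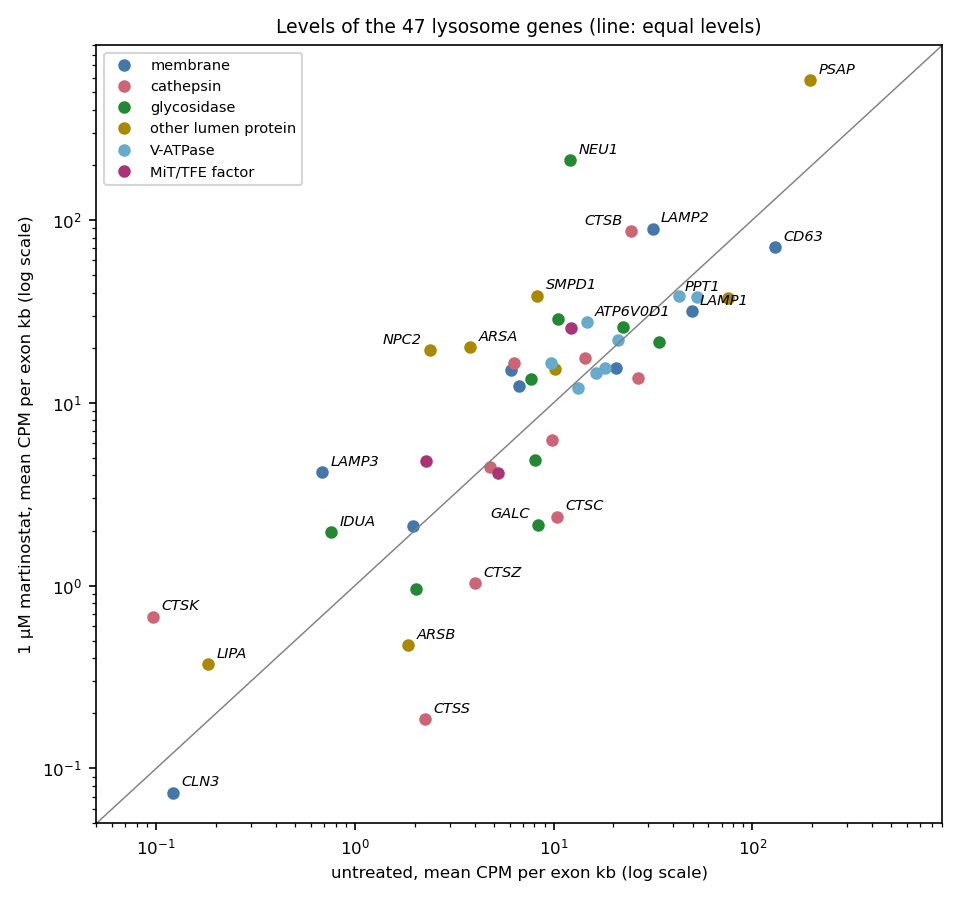
Mean level of the 47 lysosome genes in untreated cells (x axis) and at 1 µM martinostat (y axis), in CPM per exon kb, both on log scales, coloured by role. Points above the grey line were higher at 1 µM. PSAP is at the top in both groups, NEU1 lies furthest above the line and CTSS furthest below it.

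Of the 9 membrane proteins, 1 was higher and 1 lower at 0.15 µM, while 4 were higher and 3 lower at 1 µM. LAMP3, a family member first known from dendritic cells, had 2.58, 2.78 and 2.43 CPM in untreated cells, 8.33, 12.2 and 8.64 at 0.15 µM, 11.9, 14.0 and 11.3 at 0.25 µM, 15.3, 19.6 and 13.5 at 0.5 µM, and 15.8, 13.9 and 17.5 at 1 µM. Every treated library lay above every untreated one, and its log2 fold change came to 1.90 (SE 0.21, adjusted p = 4.5e-07) for 0.15 µM and 2.60 (SE 0.21, adjusted p = 2.8e-09) for 1 µM. LAMP2, which lines the membrane and includes the receptor of chaperone-mediated autophagy, had 335 ± 18.7 CPM (SD, n = 3) in untreated cells and 355 ± 12.3 at 0.15 µM, and rose to 677 ± 64.0, 970 ± 93.6 and 953 ± 57.2 at the higher doses.

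LAMP1, the other main lining protein, went the opposite way. It had 267, 277 and 308 CPM in untreated cells, 146, 134 and 159 at 0.15 µM, 124, 125 and 78.3 at 0.25 µM, 188, 212 and 113 at 0.5 µM, and 191, 170 and 184 at 1 µM, so that all treated libraries lay below all untreated ones. Its fold change was lowest at 0.25 µM (log2 value -1.38, SE 0.21, adjusted p = 1.1e-05) and was -0.64 at 1 µM (SE 0.20, adjusted p = 0.0090), a call that was lost with library totals and with 4 other alternatives. The summed CPM of the 9 membrane genes went from 1236 ± 35.5 in untreated cells to 1023 ± 28.8 at 0.15 µM and 1674 ± 24.5 at 1 µM, but without LAMP2 the other 8 went from 901 ± 19.3 to 667 ± 40.4 and 721 ± 32.7.

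CD63, a tetraspanin of late endosomes, lysosomes and exosomes, had 334, 307 and 303 CPM in untreated cells, 235, 237 and 266 at 0.15 µM, 274, 271 and 177 at 0.25 µM, 244, 169 and 114 at 0.5 µM, and 136, 233 and 146 at 1 µM. It was called lower at 0.5 and 1 µM, with a log2 fold change of -0.88 at 1 µM (SE 0.25, adjusted p = 0.0046). The libraries at 0.5 and 1 µM spread widely but all stayed below the untreated ones. The call at 0.5 µM was lost under 3 of 26 alternatives, TMM computed on genes of 10 CPM or more among them. With that TMM the call at 1 µM was lost too.

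NPC1, the cholesterol transporter of the membrane, and MCOLN1, the TRPML1 calcium channel whose opening is part of the signal to TFEB, were called higher at 0.5 and 1 µM and not at the lower doses. NPC1 had 64.8 ± 4.48 CPM in untreated cells, 52.5 ± 7.89 at 0.15 µM, 51.8 ± 7.56 at 0.25 µM, 126 ± 10.7 at 0.5 µM, then 120 ± 9.51 at 1 µM. MCOLN1 had 24.1, 22.4 and 25.8 CPM in untreated cells, 16.5, 16.2 and 22.5 at 0.15 µM, 21.0, 19.9 and 12.1 at 0.25 µM, 69.2, 71.0 and 39.0 at 0.5 µM, and 59.2, 68.1 and 53.0 at 1 µM. The MCOLN1 libraries at the 2 upper doses thus lay clear of the other 9. Its promoter is 1 of the 2 that hold the palindrome with GT before and AC after CACGTG. Any part of the palindrome in these levels was not tested. Between 0.25 and 0.5 µM the log2 fold changes were 1.29 (SE 0.15) for NPC1 and 1.76 (SE 0.23) for MCOLN1.

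CLCN7, a chloride-proton exchanger, had 172 ± 6.11 CPM in untreated cells and was lowest at 0.25 µM (87.3 ± 6.46, log2 fold change -0.98, SE 0.13), with a log2 fold change of -0.41 (SE 0.13, adjusted p = 0.011) at 1 µM that was lost with library totals. SCARB2, or LIMP-2, the transport receptor of glucocerebrosidase, was called higher at 0.25 µM and at no other dose (0.50, SE 0.15, adjusted p = 0.0091). It was not called between 0.25 µM and either neighbouring dose, and lost its call without untreated replicate 1. Under 6 of 26 alternatives it was also called higher at 0.15 µM, and under 3 each at 0.5 and 1 µM. CLN3, mutated in juvenile Batten disease, rested on 53 to 147 counts a group, and its lower call at 0.5 µM (-0.93, SE 0.36) was lost under 10 of 26 alternatives. The median log2 fold change of the 9 genes was -0.24 at 0.15 µM and 0.11 at 1 µM, and at 0.15 µM it turned to 0.12 with library totals and 0.02 with TMM computed on genes of 10 CPM or more.

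Cathepsins are the proteases of the lysosome, most of them cysteine proteases. At 0.15 µM 4 of the 10 were higher and 3 lower, and at 1 µM 3 were higher and 5 lower. CTSB, the broadly expressed cathepsin B, rose at every dose, from 259 ± 24.1 CPM in untreated cells to 616 ± 44.4, 801 ± 127, 877 ± 110 and 913 ± 75.0, and made up 5.48% of the summed CPM of all 47 genes in untreated cells and 11.5% at 1 µM. CTSF rose from 26.8 ± 1.54 to 53.8 ± 9.69 CPM at 0.15 µM and 69.9 ± 11.1 at 1 µM.

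CTSK, the collagen-degrading cathepsin K of osteoclasts, had 0.818, 1.12 and 0.509 CPM in untreated cells, 2.64, 3.46 and 1.27 at 0.15 µM, 3.83, 3.04 and 3.98 at 0.25 µM, 4.11, 3.22 and 9.22 at 0.5 µM, and 6.49, 6.08 and 4.57 at 1 µM. All treated libraries exceeded all untreated ones, although the gene stayed at a low level, with 62 counts over the untreated libraries and 490 over those at 1 µM. On the log2 scale it changed by 1.58 (SE 0.43, adjusted p = 0.0048) at 0.15 µM, lost with limma on log2 FPKM, and 2.80 (SE 0.43, adjusted p = 1.3e-05) at 1 µM.

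CTSS (ENSG00000163131.12, chr1:150730079-150765957, minus strand of hg38), the cathepsin S of antigen-presenting cells, fell the furthest of all 47 genes. It had 15.3, 15.1 and 16 CPM in untreated cells, 13.3, 12.2 and 11.3 at 0.15 µM, 6.07, 5.05 and 6.49 at 0.25 µM, 0.574, 1.46 and 0.544 at 0.5 µM, and 1.207, 1.31 and 1.33 at 1 µM. Every treated library lay below every untreated one, and its log2 fold change came to -1.40 (SE 0.24, adjusted p = 7.1e-05), -4.19 (SE 0.29, adjusted p = 3.6e-10) and -3.59 (SE 0.28, adjusted p = 1.5e-09) at the 3 upper doses. At 0.15 µM it was -0.34 (SE 0.24, adjusted p = 0.25), which did not pass the test.

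CTSC and CTSZ were lower at all 4 doses. CTSC, or dipeptidyl peptidase I, which activates granule proteases of myeloid cells, had 258 ± 17.9 CPM in untreated cells, 137 ± 30.3 at 0.15 µM and 59.3 ± 5.84 at 1 µM. CTSZ, a carboxypeptidase, had 77.6 ± 3.25, 48.7 ± 12.7 and 19.9 ± 1.64 CPM in the same groups. The CTSZ call at 0.15 µM was lost under 4 of 26 alternatives and the CTSC call at 0.25 µM under 3, library totals among them in both cases. CTSL was called lower at 0.5 and 1 µM (-0.96, SE 0.18, at 1 µM), and since it has near-identical pseudogenes that could take some of its reads, its level is uncertain.

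CTSH (ENSG00000103811.18, chr15:78921058-78949574, minus strand of hg38), a cysteine aminopeptidase, changed direction with dose. It had 147, 127 and 133 CPM in untreated cells, 246, 250 and 316 at 0.15 µM, 231, 219 and 188 at 0.25 µM, 108, 90.4 and 63.1 at 0.5 µM, and 77.4, 103 and 79.2 at 1 µM. The libraries at the 2 lower doses lay above all untreated ones and those at the 2 upper doses below them. Its log2 fold change came to 1.00 (SE 0.18, adjusted p = 0.00015) for 0.15 µM and -0.65 (SE 0.18, adjusted p = 0.0041) for 1 µM. The direct difference, 1 µM against 0.15 µM, was -1.65 (SE 0.18, adjusted p = 7.9e-07). The lower call at 1 µM was lost under 5 of 26 alternatives, among them library totals (-0.30) and TMM computed on genes of 10 CPM or more (-0.27). The difference between the doses was called under all alternatives.

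CTSA, the serine carboxypeptidase that protects GLB1 and NEU1 in a complex, was lower at 0.15 µM (-0.48, SE 0.13) and 0.25 µM (-0.60, SE 0.13), both lost with library totals, and had 41.3 ± 3.08 CPM in untreated cells and 38.6 ± 0.458 at 1 µM. CTSD, the aspartic protease cathepsin D, was called at no dose, though it was called higher at 1 µM under 6 of 26 alternatives. Its library of replicate 3 lay well below those of replicates 1 and 2 at 0.25 µM (104, 85.6 and 50.4 CPM) and at 0.5 µM (112, 104 and 50.1). The median log2 fold change of the 10 cathepsins was 0.06 at 0.15 µM and -0.37 at 1 µM, and the latter was -0.02 with library totals and 0.01 with TMM computed on genes of 10 CPM or more.

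Markers of other myeloid cells moved with these doses. Of 10 monocyte and macrophage markers, 7 were higher and 0 lower at 0.15 µM (all genes 31.9% and 19.4%). At 1 µM 6 were higher and 1, LYZ (lysozyme), was lower (all genes 38.8% and 27.5%). Their summed level was 16.5 to 18.9 CPM in untreated libraries, 74.2 to 81.5 at 0.15 µM, 69.1 to 84.8 at 0.25 µM, 59.1 to 66.8 at 0.5 µM and 57.6 to 71.3 at 1 µM. LYZ had 7.81 ± 0.844 CPM in untreated cells, 21.4 ± 2.87 at 0.15 µM and 1.76 ± 0.516 at 1 µM, and ITGAM, or CD11b, had 8.31 ± 1.40, 33.2 ± 2.40 and 15.3 ± 3.26. ITGAX, or CD11c, rose from 0.156 ± 0.132 CPM to 10.3 ± 0.741 at 1 µM. ADGRE1, the human counterpart of the mouse marker F4/80, rose from 0.0920 ± 0.0208 to 10.5 ± 1.06. Their part in the cathepsin results was not tested.

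Erythroid markers, which K562 cells carry, were lower over the same doses. Of 8 markers, 2 (TFRC and LMO2) were lower at 0.15 µM and 6 at 1 µM (all genes 19.4% and 27.5%). The summed level of the 8 went from 2332 to 2633 CPM in untreated libraries to 753 to 903 at 1 µM. LMO2, an erythroid transcriptional cofactor, had 168 ± 7.83 CPM in untreated cells, 69.6 ± 3.75 at 0.15 µM and 4.93 ± 0.0737 at 1 µM, and TFRC, the transferrin receptor, had 1228 ± 110, 423 ± 51.6 and 485 ± 59.0. HBG2, whose reads may be shared with the near-identical HBG1, was lower at 1 µM (-0.99, SE 0.39, adjusted p = 0.036). HBE1 was called higher there (1.5, SE 0.65, adjusted p = 0.049), on 13 counts over the untreated libraries and 42 over those at 1 µM. Most exon bases of HBE1 and of HBG2 lie under another gene of the same strand. The low counts of HBE1 therefore do not show that its transcript was scarce, and the level of HBG2 is uncertain for this reason too. The summed level of the markers is for the same reason not a measure of the globin transcripts.

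**Figure D4:**
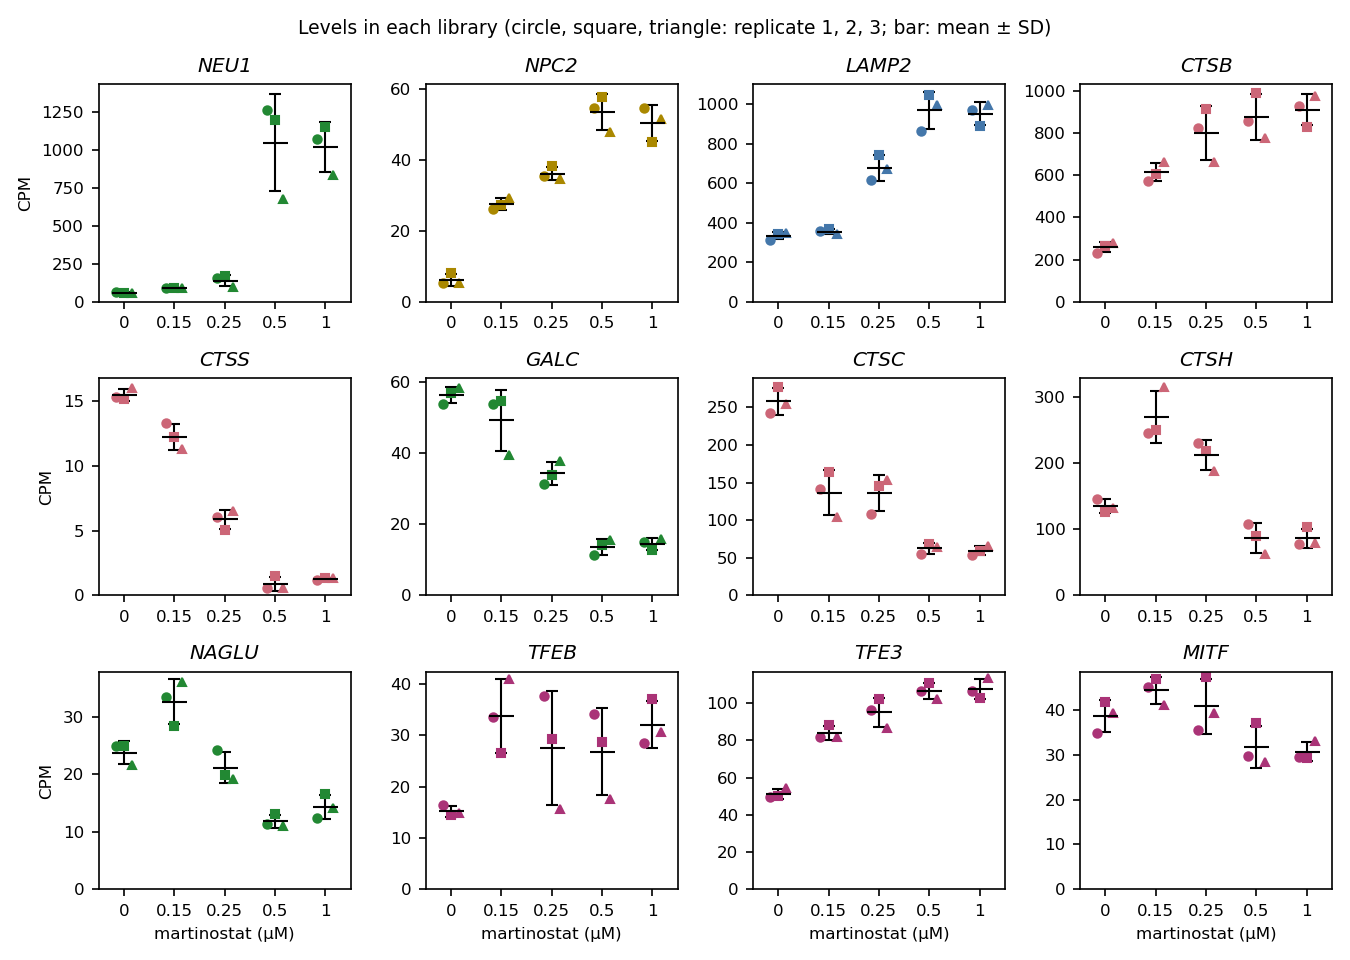
Level of 12 lysosome genes in each library, in CPM on the y axis, by martinostat dose on the x axis. Symbols mark replicates 1, 2 and 3, the long bar the mean and the whiskers the SD (n = 3), and colours the role. NEU1 is under 170 CPM in all libraries up to 0.25 µM and at 680 CPM or more above that dose, and CTSH and NAGLU are higher than untreated at 0.15 µM and lower at 1 µM.

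Glycosidases remove sugars from glycoproteins, glycolipids and glycosaminoglycans. Of 9, 5 were higher and 1 lower at 0.15 µM, while 4 were higher and 4 lower at 1 µM. NEU1 (ENSG00000204386.12, chr6:31857659-31862905, minus strand of hg38), the lysosomal sialidase, had the largest rise of the 47 genes. It had 62.9, 56.1 and 56.2 CPM in untreated cells, 87.6, 87.0 and 88.4 at 0.15 µM, 155, 166 and 96.0 at 0.25 µM, 1264, 1198 and 680 at 0.5 µM, and 1072, 1155 and 839 at 1 µM. All treated libraries lay above all untreated ones, and the 6 libraries at the upper doses were at least 4 times any other. The mean at 1 µM was 17.5-fold that of untreated cells, with a log2 fold change of 4.13 (SE 0.25, adjusted p = 5.5e-11). At 0.15 µM it was 0.59 (SE 0.22, adjusted p = 0.034), a call lost when any 1 of the 6 libraries compared was left out. Between 0.25 and 0.5 µM its log2 fold change came to 2.91 (SE 0.24, adjusted p = 3.8e-08).

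GALC, which removes galactose from galactosylceramide of myelin, fell over the same step. It had 53.9, 56.9 and 58.5 CPM in untreated cells, 54.0, 54.6 and 39.4 at 0.15 µM, 31.4, 33.9 and 37.7 at 0.25 µM, 11.2, 14.2 and 15.7 at 0.5 µM, and 14.9, 12.7 and 15.9 at 1 µM. From 0.25 µM on, no treated library reached the untreated range. On the log2 scale it changed by -0.72 (SE 0.16) at 0.25 µM, lost with library totals, and -1.96 (SE 0.16, adjusted p = 4.8e-09) at 1 µM.

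NAGLU (ENSG00000108784.10, chr17:42536241-42544449, plus strand of hg38), a glucosaminidase of heparan sulfate breakdown, had 24.9, 24.8 and 21.5 CPM in untreated cells, 33.5, 28.4 and 36.0 at 0.15 µM, 24.2, 19.9 and 19.2 at 0.25 µM, 11.4, 13.0 and 10.9 at 0.5 µM, and 12.3, 16.5 and 14.1 at 1 µM. Like CTSH it lay above the untreated libraries at 0.15 µM and below them at 1 µM. Its log2 fold change came to 0.46 (SE 0.16, adjusted p = 0.021) for 0.15 µM and -0.73 (SE 0.16, adjusted p = 0.00049) for 1 µM, and -1.19 (SE 0.16, adjusted p = 6.5e-06) between these doses. The call at 0.15 µM was lost with no filter on low counts and without untreated replicate 3, 0.15 µM replicate 1 or 0.15 µM replicate 3, and the call at 1 µM with TMM computed on genes of 10 CPM or more (-0.35). Part of its exons (12.9% of bases) lies under another gene of the same strand.

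GAA, the acid alpha-glucosidase that degrades glycogen, was highest at the lowest dose, with 40.6 ± 2.75 CPM in untreated cells, 84.0 ± 8.97 at 0.15 µM, 54.8 ± 9.92 at 0.25 µM and 71.0 ± 3.48 at 1 µM. IDUA, which acts on dermatan and heparan sulfate, rose at all doses, from 3.08 ± 0.305 to 9.60 ± 0.921 CPM at 0.15 µM and 7.95 ± 0.728 at 1 µM. MAN2B1, the alpha-mannosidase, went from 56.8 ± 5.89 to 155 ± 7.64 CPM at 1 µM. HEXA, the alpha subunit of beta-hexosaminidase, was lower at all doses, from 32.4 ± 1.86 to 15.2 ± 0.812 CPM at 1 µM. GUSB, beta-glucuronidase, had 132 ± 3.07 CPM in untreated cells and 84.0 ± 1.66 at 1 µM, and has near-identical pseudogenes, so its level is uncertain. GLB1, the beta-galactosidase used as a stain for senescence, was called at no dose, with 97.0 ± 6.02 CPM in untreated cells and 113 ± 3.15 at 1 µM. Under 6 of 26 alternatives it was called higher at 1 µM. Its log2 fold change there was 0.22, but 0.58 with library totals.

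The other lumen proteins had the highest median of the larger roles, 0.81 at 0.15 µM and 1.30 at 1 µM on the log2 scale. At 0.15 µM 5 of the 8 were higher and 2 lower, and at 1 µM 6 were higher and 2 lower. NPC2, the soluble carrier that hands cholesterol to NPC1, had 5.19, 8.11 and 5.17 CPM in untreated cells, 26, 27.1 and 29.3 at 0.15 µM, 35.5, 38.1 and 34.5 at 0.25 µM, 54.6, 57.8 and 47.9 at 0.5 µM, and 54.7, 44.9 and 51.5 at 1 µM. No treated library came near the untreated range, and its log2 fold change came to 2.16 (SE 0.17, adjusted p = 6.6e-09) for 0.15 µM and 3.03 (SE 0.18, adjusted p = 2.9e-11) for 1 µM. NPC1 itself was called higher only at 0.5 and 1 µM, as given above.

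PSAP, SMPD1 and ARSA, of sphingolipid breakdown, rose with NPC2. PSAP had 607 ± 20.9 CPM in untreated cells, 921 ± 159 at 0.15 µM, 1133 ± 168 at 0.25 µM, 1735 ± 279 at 0.5 µM, then 1814 ± 152 at 1 µM. SMPD1, acid sphingomyelinase, went from 22.7 ± 1.48 to 45.8 ± 5.84 CPM at 0.15 µM and 106 ± 8.52 at 1 µM, and ARSA, the arylsulfatase that acts on sulfatide, from 17.1 ± 0.801 to 42.4 ± 5.42 and 91.1 ± 15.8. All 3 were called at every dose, with log2 fold changes of 1.58 (SE 0.18), 2.22 (SE 0.18) and 2.42 (SE 0.18) at 1 µM. GALC and HEXA, which also act in sphingolipid breakdown, went down, and GLB1 was called at no dose, as described above.

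ARSB, which acts on dermatan sulfate and chondroitin sulfate, fell most among the lumen proteins. It had 21.3, 14.0 and 14.2 CPM in untreated cells, 11.0, 10.2 and 8.22 at 0.15 µM, 8.47, 6.91 and 5.76 at 0.25 µM, 5.52, 5.69 and 2.69 at 0.5 µM, and 4.12, 5.22 and 3.31 at 1 µM. All treated libraries lay below all untreated ones, with a log2 fold change of -1.97 (SE 0.28, adjusted p = 4.7e-06) for 1 µM and -0.75 (SE 0.27, adjusted p = 0.025) for 0.15 µM. The latter was lost under 8 alternatives, library totals and leaving out untreated replicate 1 among them.

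PPT1, palmitoyl-protein thioesterase, fell from 255 ± 7.13 to 117 ± 6.65 CPM at 0.15 µM and had 127 ± 7.72 at 1 µM, which left no difference called between those doses (0.11, SE 0.13). LIPA, acid lipase, had 68 counts over the untreated libraries and 155 over those at 1 µM, and its higher call at 1 µM (1.01, SE 0.34, adjusted p = 0.013) was lost with limma on log2 FPKM and without untreated replicate 1 or 1 µM replicate 1. TPP1, a tripeptidyl peptidase, was higher from 0.25 µM (0.58, SE 0.19, adjusted p = 0.012 at 1 µM), a call lost without untreated replicate 1 or 1 µM replicate 3.

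The V-ATPase consists of the membrane part V0, which conducts protons, and the peripheral part V1, which hydrolyses ATP. Of the 8 subunits, 0 were higher and 3 lower at 0.15 µM, while 2 were higher and 1 lower at 1 µM. ATP6V0D1, of V0, had 110, 122 and 127 CPM in untreated cells, 103, 106 and 159 at 0.15 µM, 130, 121 and 72.1 at 0.25 µM, 241, 263 and 139 at 0.5 µM, and 229, 220 and 229 at 1 µM. Its libraries at the 2 lower doses overlapped the untreated ones and those at the 2 upper doses lay above them, with a log2 fold change of 0.92 (SE 0.24, adjusted p = 0.0023) at 1 µM. ATP6V1D, of V1, was also called at 0.5 and 1 µM and not at the lower doses, where all its libraries lay below the untreated ones, with 41.0 ± 2.57 CPM in untreated cells, 34.2 ± 2.09 at 0.15 µM, 76.4 ± 9.73 at 0.5 µM, then 70.5 ± 6.88 at 1 µM.

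ATP6V1E1, a V1 stalk subunit, had 157, 177 and 165 CPM in untreated cells, 106, 104 and 125 at 0.15 µM, 102, 102 and 82.0 at 0.25 µM, 121, 130 and 99.9 at 0.5 µM, and 120, 117 and 119 at 1 µM. All treated libraries lay below all untreated ones, and its log2 fold change came to -0.57 (SE 0.14, adjusted p = 0.0020) for 0.15 µM and -0.48 (SE 0.14, adjusted p = 0.0047) for 1 µM, both lost with library totals. ATP6V1B2, which shares the ATPase head with the A subunit, dipped to 91.4 ± 5.16 CPM at 0.15 µM from 165 ± 20.3 and returned to 171 ± 14.0 at 1 µM. ATP6V1C1 went from 106 ± 13.2 to 62.7 ± 1.75 and 90.3 ± 7.97 CPM in the same groups.

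The catalytic subunit ATP6V1A, ATP6V0E1 and ATP6V1H were called at no dose. Their log2 fold changes at 1 µM were -0.16 (SE 0.14), -0.16 (SE 0.16) and -0.14 (SE 0.17). The median over the 8 subunits was -0.28 at 0.15 µM and -0.15 at 1 µM, but 0.08 and 0.20 with library totals and -0.02 and 0.23 with TMM computed on genes of 10 CPM or more, so no direction was given for the pump as a whole.

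Of the MiT/TFE factors, TFEB and TFE3 were called higher at all 4 doses and MITF at none. Even so, MITF was called higher at 0.15 µM under 5 of 26 alternatives, library totals among them (0.56), and at 0.25 µM under 5. At 1 µM it was called lower under 7 alternatives. TFEB, a master regulator of lysosomal genes, had 16.4, 14.4 and 14.8 CPM in untreated cells, 33.6, 26.7 and 41.1 at 0.15 µM, 37.8, 29.4 and 15.6 at 0.25 µM, 34.2, 28.7 and 17.7 at 0.5 µM, and 28.4, 37.2 and 30.6 at 1 µM. The replicate 3 libraries at 0.25 and 0.5 µM lay near or within the untreated range and the other treated libraries well above it. On the log2 scale it changed by 1.15 (SE 0.28, adjusted p = 0.0024) for 0.15 µM and 1.08 (SE 0.28, adjusted p = 0.0027) for 1 µM, with -0.07 (SE 0.27) between them. The call at 0.25 µM was lost without 0.25 µM replicate 1 and that at 0.5 µM without untreated replicate 2 or 0.5 µM replicate 1.

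TFE3 had less spread. Its levels were 49.4, 50.1 and 54.4 CPM in untreated cells, 81.9, 88.4 and 82.0 at 0.15 µM, 96.4, 102 and 86.8 at 0.25 µM, 107, 111 and 102 at 0.5 µM, and 107, 103 and 114 at 1 µM. All treated libraries were above all untreated ones, with a log2 fold change of 0.71 (SE 0.12, adjusted p = 6.1e-05) for 0.15 µM and 1.07 (SE 0.12, adjusted p = 2.3e-07) for 1 µM. MITF, the factor of melanocytes, mast cells and osteoclasts, had 34.9, 41.8 and 39.4 CPM in untreated cells, 45.2, 47 and 41.2 at 0.15 µM, 35.7, 47.6 and 39.4 at 0.25 µM, 29.9, 37.2 and 28.4 at 0.5 µM, and 29.5, 29.4 and 33.2 at 1 µM. Its log2 fold change at 1 µM was -0.33 (SE 0.15, adjusted p = 0.051), and between 0.15 and 1 µM it was lower by the call (-0.53, SE 0.15, adjusted p = 0.0059). Activity of these factors is set largely by phosphorylation and location, which transcript levels do not show.

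The study asked what increasing doses of martinostat do, so neighbouring doses were also compared. From 0.15 to 0.25 µM 2 members, LAMP2 and ATP6V1B2, were higher and 6, CLCN7, CTSS, CTSZ, GAA, GALC and NAGLU, were lower, where 4.96% and 7.32% of all genes were called (12.3% in either direction). Without replicate 3 at 0.25 and 0.5 µM the higher calls of this step were 5, with single libraries left out they were 1 to 3 (2 without untreated replicate 1, 0.25 µM replicate 1 or 1 µM replicate 2, 3 without 0.25 µM replicate 3 or 0.5 µM replicate 3, and otherwise 1), and without 0.25 µM replicate 2 or 0.25 µM replicate 3 the lower calls were 3. From 0.25 to 0.5 µM 17 were higher and 9 lower (all genes 14.4% and 16%, 30.4% in either direction). From 0.5 to 1 µM 0 members and 0 genes were called by edgeR, with 0 members and 372 genes at an unadjusted p under 0.05. Over the whole range, 1 against 0.15 µM, 18 members were higher and 12 lower (all genes 21.5% and 23.1%, 44.5% in either direction).

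The step from 0.25 to 0.5 µM held more calls than the steps on either side of it. It included 4 of 8 V-ATPase subunits (ATP6V0D1, ATP6V1B2, ATP6V1C1 and ATP6V1D), which rose with none falling, and 5 of 9 membrane proteins (LAMP1, LAMP2, NPC1, MCOLN1 and CLCN7), with CLN3 falling. Of the cathepsins 2 rose (CTSA and CTSF) and 5 fell (CTSC, CTSH, CTSL, CTSS and CTSZ). The third libraries of these 2 groups deviated together. With the replicate number as a block GUSB lost its call (-0.38, adjusted p = 0.061) and ARSB gained one (-0.65, adjusted p = 0.032). When only these 2 groups were fitted, 9 members were called higher in place of 17.

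Of the 47 genes, 14 were called higher at all 4 doses (all genes 24.6%). These were LAMP3, CTSB, CTSF, CTSK, GAA, NEU1, IDUA, ARSA, SMPD1, LIPA, NPC2, PSAP, TFEB and TFE3. A further 7, LAMP1, CTSC, CTSZ, HEXA, ARSB, PPT1 and ATP6V1E1, were called lower at all 4 (15.1%), and 6, CTSD, GLB1, ATP6V0E1, ATP6V1A, ATP6V1H and MITF, at none (20.1%). CTSH and NAGLU were the 2 members called higher at 0.15 µM, lower at 1 µM and different between them, a pattern that 1.43% of all genes tested had. The reverse pattern was found for 0 members, and 0.536% of all genes had it.

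Other genes were called at 1 µM but not at 0.15 µM. LAMP2, NPC1, MCOLN1, ATP6V0D1 and ATP6V1D were not called at 0.15 µM, were higher at 1 µM and differed between these doses, with log2 fold changes of 1.42 (SE 0.14), 1.19 (SE 0.15), 1.71 (SE 0.23), 0.88 (SE 0.24) and 1.04 (SE 0.14) between them. LAMP2 was already called at 0.25 µM and the other 4 were first called at 0.5 µM. CTSL, CTSS, GUSB and GALC were not called at 0.15 µM, lower at 1 µM and lower at 1 than at 0.15 µM, the steepest being CTSS at -3.25 (SE 0.27), and CTSS and GALC were already called lower at 0.25 µM. CTSA, ATP6V1B2 and ATP6V1C1 were lower at 0.15 µM, not called at 1 µM and higher at 1 than at 0.15 µM.

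**Figure D5:**
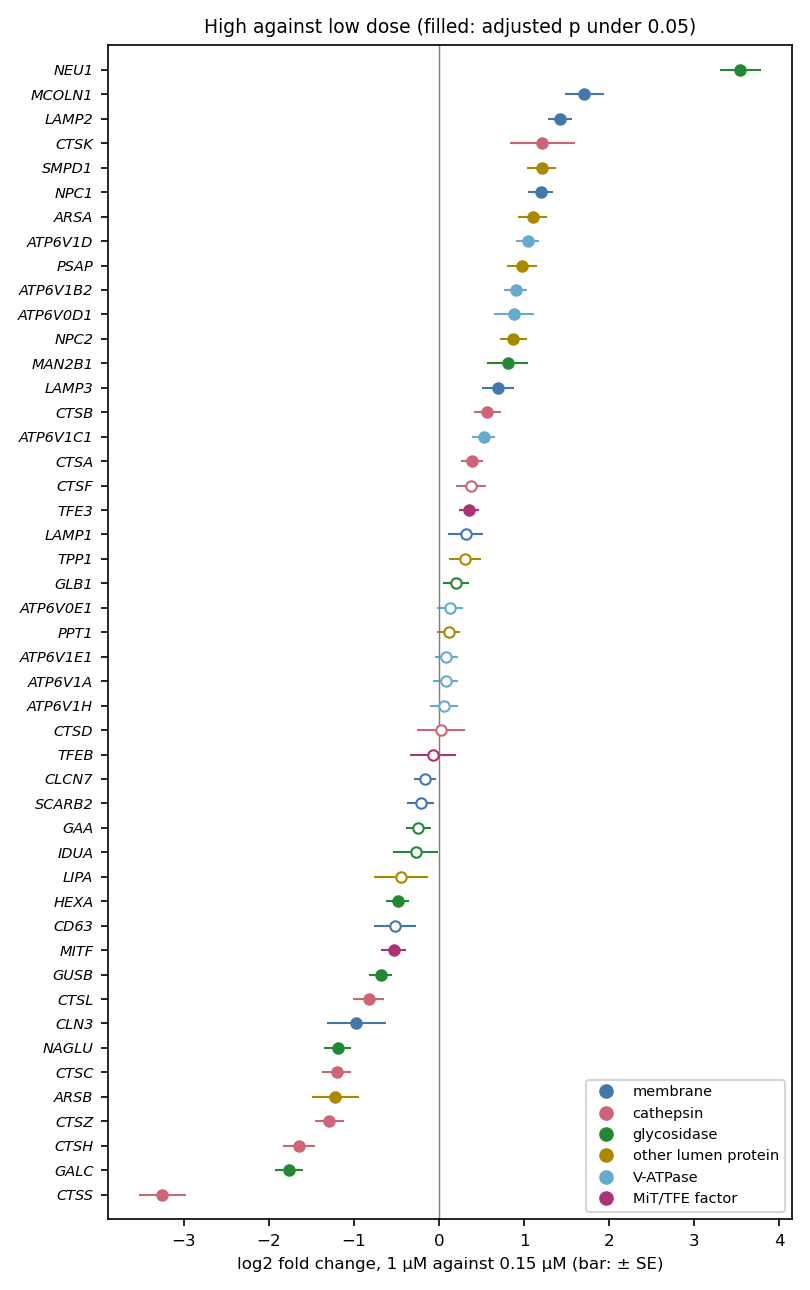
Log2 fold change of each lysosome gene at 1 µM against 0.15 µM martinostat (x axis, points with ± SE, 3 libraries a group), coloured by role and ordered by value. Filled points had an adjusted p under 0.05. NEU1 is at the top with 3.54 and CTSS at the bottom with -3.25, and of the V-ATPase subunits 4 are filled on the right and 0 on the left.

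Other genes of the organelle were read from lists. Of 25 other hydrolases and their activators, 8 were higher and 1 (GLA) lower at 0.15 µM, while 13 were higher and 2 lower at 1 µM, with a median log2 fold change of 0.20 and 0.56 (all genes 0.28 and 0.32). CTSV, a cathepsin L relative known from thymus, had 3.43 ± 0.441 CPM in untreated cells, 42.6 ± 1.62 at 0.15 µM and 97.0 ± 2.71 at 1 µM (log2 fold change 4.82, SE 0.20, adjusted p = 4.0e-13). LGMN, legumain, which processes cathepsins, had 7.51 ± 0.377, 31.7 ± 1.09 and 91.1 ± 7.00 CPM in those groups. NAAA, an acid amidase, and AGA, which cleaves the sugar from asparagine, were the 2 lower genes, with log2 fold changes of -1.41 (SE 0.22) and -0.63 (SE 0.18) at 1 µM.

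Of 18 other membrane proteins of the lysosome 17 were tested, CD68 having 2 to 8 counts a group. Another gene of the same strand covers 81.6% of the exon bases of CD68, so these counts do not show that its transcript was absent. At 0.15 µM 7 were higher and 3 (CTNS, SLC38A9 and TMEM192) lower, and at 1 µM 8 were higher and 4 (HGSNAT, LAPTM4B, LAPTM5 and TMEM192) lower, with medians of 0.24 and 0.13. ABCB9, a peptide transporter, rose from 7.99 ± 0.533 to 46.8 ± 0.503 CPM at 1 µM, and TMEM175, a potassium and proton channel, from 18.4 ± 0.759 to 79.2 ± 12.2. LAPTM5, of haematopoietic cells, had 5.50 ± 1.52 CPM in untreated cells, 21.0 ± 2.27 at 0.15 µM and 2.39 ± 0.636 at 1 µM, so that it was higher and then lower (-3.13, SE 0.28, between the doses). TMEM192 fell from 38.4 ± 0.542 to 11.1 ± 1.16 CPM.

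Of 16 other V-ATPase subunits and accessory proteins 14 were tested, with 5 higher and 1 lower for 0.15 µM and 6 higher and 1 lower for 1 µM. ATP6V1G1, the broadly expressed G subunit, fell from 134 ± 13.5 to 63.9 ± 5.82 CPM at 0.15 µM and had 97.2 ± 7.20 at 1 µM. ATP6V1G2, the G subunit of neurons, went from 0.196 ± 0.0639 to 4.08 ± 0.219 CPM at 1 µM. ATP6V0A4, the kidney form of the a subunit, had 0 counts over the 3 untreated libraries and 122 over those at 1 µM. ATP6V0A1, the neuronal and broadly expressed form, rose from 285 ± 34.3 to 479 ± 59.5 CPM.

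Of 14 genes that deliver hydrolases to the lysosome, 0 were higher and 5 (NAGPA, M6PR, GGA2, AP3B1 and VPS35) lower at 0.15 µM, while 2 were higher and 4 (NAGPA, M6PR, GGA2 and GGA3) lower at 1 µM, with medians of -0.11 and -0.08. NAGPA, the uncovering enzyme of the mannose 6-phosphate tag, fell from 31.6 ± 3.77 to 9.80 ± 0.498 CPM, and M6PR, the cation-dependent receptor of that tag, from 93.0 ± 4.75 to 45.1 ± 3.48 CPM at 1 µM. GNPTG, a subunit of the enzyme that starts the tag, rose to 36.7 ± 7.71 CPM from 23.0 ± 1.02 (0.67, SE 0.17, adjusted p = 0.0022), and AP1M1, an adaptor subunit, to 146 ± 10.7 from 108 ± 8.32 (0.43, SE 0.18, adjusted p = 0.042).

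A list of 15 genes held 14 of nutrient sensing at the lysosomal surface, a pathway that controls whether TFEB and TFE3 enter the nucleus, and TFEC, a further MiT/TFE transcription factor. Of these, 1 (RRAGD) was higher and 4 (LAMTOR1, LAMTOR3, FLCN and MTOR) lower at 0.15 µM. At 1 µM 5 were higher (RRAGA, RRAGC, FLCN, FNIP1 and TFEC) and 4 lower (LAMTOR1, LAMTOR3, LAMTOR5 and RPTOR), with medians of 0.01 and 0.08. RRAGC, a Rag GTPase, rose from 15.7 ± 0.704 to 40.1 ± 4.70 CPM at 1 µM and RRAGA from 40.1 ± 4.78 to 89.4 ± 4.00. RPTOR, the raptor subunit of mTORC1, fell from 182 ± 15.0 to 80.5 ± 16.2 CPM, and LAMTOR3, of the Ragulator scaffold, from 49.4 ± 4.35 to 32.1 ± 2.41. TFEC had 0 counts over the untreated libraries and 37 over those at 1 µM.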

How the data were processed

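The deposited table held raw counts of fragments per gene in 15 libraries, not normalised. According to the study's methods and the submitters' processing notes, the authors selected poly(A) RNA, made directional paired-end libraries, trimmed reads with Trim Galore 0.6.10 and Trimmomatic, aligned them to hg38 with HISAT2 2.2.1 and SAMtools 1.21, and counted GENCODE genes with featureCounts 1.5.3. Whether strand was used in counting is not given in the sources used here, so that exons under genes of the other strand add uncertainty. The deposited FPKM, 1 file per library, were computed by the authors on a gene length that equalled the genomic span for 44 of the 47 members, and were used only on the log2 scale with limma 3.58.1 as an alternative. Symbols were found for 99.7% of identifiers. Exon lengths, overlaps and gene positions came from a GENCODE annotation of hg38 later than the one the study names.

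Counts were fitted with edgeR 4.0.16 in R 4.3.3: filterByExpr (23711 genes left), TMM scaling, all 15 libraries in 1 robust quasi-likelihood fit with a term for the group alone, 10 residual degrees of freedom and a biological coefficient of variation of 0.228. P-values were adjusted by Benjamini-Hochberg over all genes tested. The code was tested on simulated data. No 2 replicates of a group agreed within sampling noise (chi-square per degree of freedom 6.49 or higher). P-values measure the spread between the labelled biological replicates. The members and lists were chosen with earlier results of these data known, and the lists are therefore described by counts and medians, without a test of their own. Values per library were given for the highest and the lowest gene of each role at 1 µM, the MiT/TFE factors and the genes of opposite direction, and for each list the 2 highest and 2 lowest called genes that averaged 1 CPM or more. Other genes were named after their values were seen. The values of 1 marker gene that this rule names are not reported here. The pairing of replicate numbers was checked by the correlation of deviations from the group means: 0.266, 0.268 and 0.579 for replicates 1, 2 and 3 between 0.25 and 0.5 µM, and 0.0918 or lower in all other pairs of groups. Replicate 2 at 0.25 µM and replicate 1 at 0.5 µM, of different number, gave 0.236, so only the third libraries stood out as a pair. Alternatives were library totals, relative log expression (RLE) size factors, TMM computed on genes of 10 CPM or more, no filter, at least 10 counts in every library, only the libraries compared, a replicate block, DESeq2 1.42.0, limma on log2 FPKM with a pseudocount of 1 or 0.1, and each library left out in turn. Leaving out the libraries of replicate 3 at 0.25 and 0.5 µM was added after seeing the data.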

Additional observations from a re-analysis of the deposited data

Results flagged for a closer look

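CTSH was higher at 0.15 µM (log2 fold change 1.00, SE 0.18) and lower at 1 µM (-0.65, SE 0.18), and the test of the difference between these effects gave -1.65 (SE 0.18, adjusted p = 7.9e-07, edgeR). It stands out because its change has opposite signs at the low and the high dose: 3 of 3 libraries at 0.15 µM lay above and 3 of 3 at 1 µM below the untreated ones. NAGLU showed the same, with 0.46 (SE 0.16) at 0.15 µM, -0.73 (SE 0.16) at 1 µM and a difference of -1.19 (SE 0.16, adjusted p = 6.5e-06), again in 3 of 3 libraries at each dose. For both genes the difference between the doses was called under all alternatives. The lower call at 1 µM was lost with TMM computed on genes of 10 CPM or more for both genes. For CTSH it was also lost with library totals, with at least 10 counts in every library and with both limma fits.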

How the results depend on the processing

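Of the members called against untreated cells, 17 of 27 at 0.15 µM, 21 of 31 at 0.25 µM, 29 of 37 at 0.5 µM and 26 of 36 at 1 µM kept their call under all 26 alternatives, as did 25 of 30 between 0.15 and 1 µM, 16 of 26 between 0.25 and 0.5 µM and 3 of 8 between 0.15 and 0.25 µM. Members called lower at 0.15 µM went from 10 to 5 with library totals and with limma on log2 FPKM at either pseudocount. With library totals the share of all genes called lower at that dose fell as well, from 19.4% to 8.93%. At 0.25 µM they went from 13 to 7 with library totals and both limma fits and to 8 with TMM computed on genes of 10 CPM or more. At 0.5 µM they went from 16 to 9 with that TMM and to 10 with at least 10 counts in every library or limma with a pseudocount of 1. At 1 µM they went from 15 to 8 with that TMM, where the share of all genes called lower went from 27.5% to 20%. Between 0.15 and 0.25 µM the 2 higher calls became 6 with library totals, 7 with that TMM, 5 with at least 10 counts in every library, 5 with DESeq2, 8 with both limma fits and 5 without replicate 3 at 0.25 and 0.5 µM, and the 6 lower calls became 3 with library totals, with that TMM and with limma at a pseudocount of 0.1, and 2 with only the libraries compared. Between 0.25 and 0.5 µM the 17 higher calls became 9 with only the libraries compared, where fewer samples set the spread. Otherwise the cause was not tested. NAGLU at 0.25 µM turned from -0.17 to 0.25 and 0.34 with limma at pseudocounts of 1 and 0.1, uncalled with edgeR.

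With each library left out in turn, the higher and lower counts ran from 14 to 17 and 9 to 10 at 0.15 µM, 16 to 19 and 12 to 16 at 0.25 µM, 20 to 21 and 15 to 16 at 0.5 µM, 19 to 21 and 15 to 16 at 1 µM, 1 to 3 and 3 to 6 between 0.15 and 0.25 µM, 12 to 18 and 8 to 10 between 0.25 and 0.5 µM, and 15 to 18 and 11 to 13 between 0.15 and 1 µM. The lower calls between 0.15 and 0.25 µM were 3 without 0.25 µM replicate 2 or replicate 3. The replicate block, beyond the change given for 0.25 and 0.5 µM, added MITF at 1 µM (-0.33, adjusted p = 0.045) and NEU1 between 0.15 and 0.25 µM (0.62, adjusted p = 0.037), in groups that share only a number, and changed no other call. Depth limits CTSK, LIPA and CLN3 most, which had the fewest counts in untreated cells.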

Other observations

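The summed level of the 47 genes was 4730 ± 122 CPM in untreated cells (SD, n = 3), 5080 ± 382 at 0.15 µM, 5655 ± 561.8 at 0.25 µM, 7774 ± 1046 at 0.5 µM, then 7903 ± 192 at 1 µM, while as many as 15 of the genes were called lower at 1 µM. A few abundant transcripts held this sum: PSAP made up 12.8% of it in untreated cells and 23.0% at 1 µM, NEU1 1.23% and 12.9%, LAMP2 7.08% and 12.1%, and CTSB 5.48% and 11.5%. The shares of LAMP1 (6.00% and 2.30%), CD63 (6.65% and 2.17%), CTSC (5.46% and 0.750%) and PPT1 (5.39% and 1.60%) went down. By role, the glycosidases summed to 501 ± 11.8 CPM in untreated cells and 1497 ± 154 at 1 µM, but without NEU1 the other 8 summed to 442 ± 14.0 and 475 ± 9.81. The V-ATPase subunits summed to 837 ± 46.98 and 891 ± 40.9.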
